A study of Oryza sativa with 12 samples.

Results

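The genes described here are the cyclin, cyclin-dependent kinase (CDK) and kinesin genes of rice. They were taken by name: a gene belonged if its symbol or a synonym, with or without the prefix Os, began with CYC and the letter A, B, D, H, L, P, T or U and a number, with CDK and a letter from A to G, or with KIN, a number and a letter. The reference gene table named 76 such genes, and 66 of them had a probe set assigned to 1 gene, out of 17905 genes so measured. The 66 genes were 7 cyclins of types A and B, 9 D-type cyclins, 7 other cyclins, 11 CDKs and 32 kinesins. They were covered by 80 probe sets, and the one brightest on average over the 12 arrays stood for its gene. No probe set was assigned to CYCA3-1, CYCB1-5, CYCD2-1, CYCT1-1, CDKB1-1, CDKC-2, CDKF-2, KIN12F, KIN14D and KIN14P.

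The study measured RNA of whole rice panicles from 4 groups, with 3 biological replicates each: osmads1 panicles of 2 mm, wild-type panicles of 2 mm, osmads1 panicles of 5-7 mm and wild-type panicles of 5-7 mm. The plants stood in a paddy field and received no treatment, and the labels name neither the osmads1 allele nor the rice cultivar. OsMADS1 is a MADS-box transcription factor that acts in the floral meristem and in the outer organs of the rice floret. The comparison asks what its loss changes when the inner floral organs start to form (2 mm) and when the floral organs are at a later stage (5-7 mm).

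Cyclins are the regulatory subunits that activate CDKs. D-type cyclins act at the entry into the cell cycle, where the CDK complex phosphorylates the retinoblastoma-related protein, and A- and B-type cyclins act in S phase, G2 and mitosis. Kinesins are microtubule motors, many of which build the spindle, the preprophase band and the phragmoplast that lays down the new wall in a dividing plant cell, while others carry cargo or act on growing cells. Several cyclin and CDK types of the set have other roles: CYCH pairs with CDKD in the CDK-activating kinase, CYCT with CDKC in transcription elongation, CYCL with CDKG in RNA processing, and CDKE belongs to the Mediator complex.

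The labels matched the genotype. OsMADS1 had log2 levels of 5.25, 4.27 and 5.04 in osmads1 panicles of 2 mm, against 10.57, 10.93 and 10.90 in wild type, and of 4.96, 3.85 and 3.49 in osmads1 panicles of 5-7 mm, against 11.61, 11.51 and 11.48 in wild type. All 7 floral and inflorescence genes used to check the tissue (OsMADS14, OsMADS15, OsMADS34, OsMADS7, OsMADS8, OSH1 and RFL) lay above the reporter probe sets, whose signal comes from no rice gene, in every group. Their levels were not matched between genotypes: 3 were lower in osmads1 at 2 mm (42.9%), beside 12.1% of all genes. At 5-7 mm 4 were higher (57.1%) and 2 lower (28.6%), beside 13.3% and 19.4%. OsMADS7 differed by -1.98 at 2 mm and -1.91 at 5-7 mm, and OsMADS8 by -1.99 and -1.80. RFL differed by 1.26 at 5-7 mm. The part of these tissue differences in the results was not tested. Replicate arrays correlated at 0.9954 to 0.9977 over all probe sets. The median level of an array lay between 4.098 and 4.134 at 2 mm, and between 4.931 and 5.004 at 5-7 mm, as if the lengths had been normalized apart, so levels were compared between genotypes within a length and not between lengths. At 2 mm the 3′ minus 5′ signal of the GAPDH control, a measure of how complete the labelled RNA was, averaged 2.58 ± 0.059 in osmads1 panicles and 3.584 ± 0.042 in wild-type panicles (SD, n = 3 each). A larger value marks less complete RNA. This signal was also lower in osmads1 at 2 mm for the actin, cyclophilin and ubiquitin controls, with no overlap between the arrays. Second control pairs of GAPDH and actin overlapped at 2 mm, and all 6 pairs overlapped at 5-7 mm. The part of RNA quality in the results at 2 mm, and in those that set the lengths against each other, was not tested.

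At 2 mm the genes of this set were more often lower than higher in osmads1, with a negative difference for 50 of 66, beside 53.4% of all genes. Of the 66 genes, 17 were lower (25.8%) and 2 higher (3.03%) at an adjusted p under 0.05, against 12.1% lower and 10.2% higher among all 17905 genes. Kinesins made up 14 of the 17 lower genes. At 5-7 mm 10 genes were higher in osmads1 (15.2%) and 6 lower (9.09%), against 13.3% higher and 19.4% lower among all genes. The median difference, osmads1 minus wild type, was -0.16 over the 66 genes at 2 mm, against -0.017 over all genes, and 0.046 at 5-7 mm, against -0.017 over all genes.

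The differences were small. The largest was 1.51-fold at 2 mm (KIN14A) and 1.7-fold at 5-7 mm (CYCP4-1), and 0 of the 66 genes reached 2-fold at either length. The 3 osmads1 arrays all lay below the 3 wild-type arrays for 36 genes at 2 mm and above them for 6, beside 25.5% and 20.5% of all genes. At 5-7 mm the osmads1 arrays lay above for 16 genes and below for 13, against 22.4% and 29% of all genes. The set is brightly expressed: 57 of the 66 genes had a mean level above the median of all genes, and genes called lower at 2 mm were more frequent there in general (14.9%), with 16 of these 57 members lower (28.1%). Only KIN14B lay at the level of the reporter probe sets at both lengths.

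A single array stood low in this set. Replicate 2 of the osmads1 panicles of 2 mm gave the lowest of the 3 osmads1 values for 50 of the 66 genes (75.8%), and for 50.2% of all genes. Without this array 13 members were lower at 2 mm and 2 higher. The count of lower genes at 2 mm was 11 without osmads1 replicate 3 or without wild-type replicate 3 of that length, and 1 gene was higher at 2 mm without osmads1 replicate 1 or 3, or without wild-type replicate 1 or 2. The count of lower genes at 5-7 mm was 10 with dim probe sets left out and 12 with a trended, robust variance prior. In whole panicles, fewer dividing cells and less RNA per cell cannot be told apart.

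**Figure D1:**
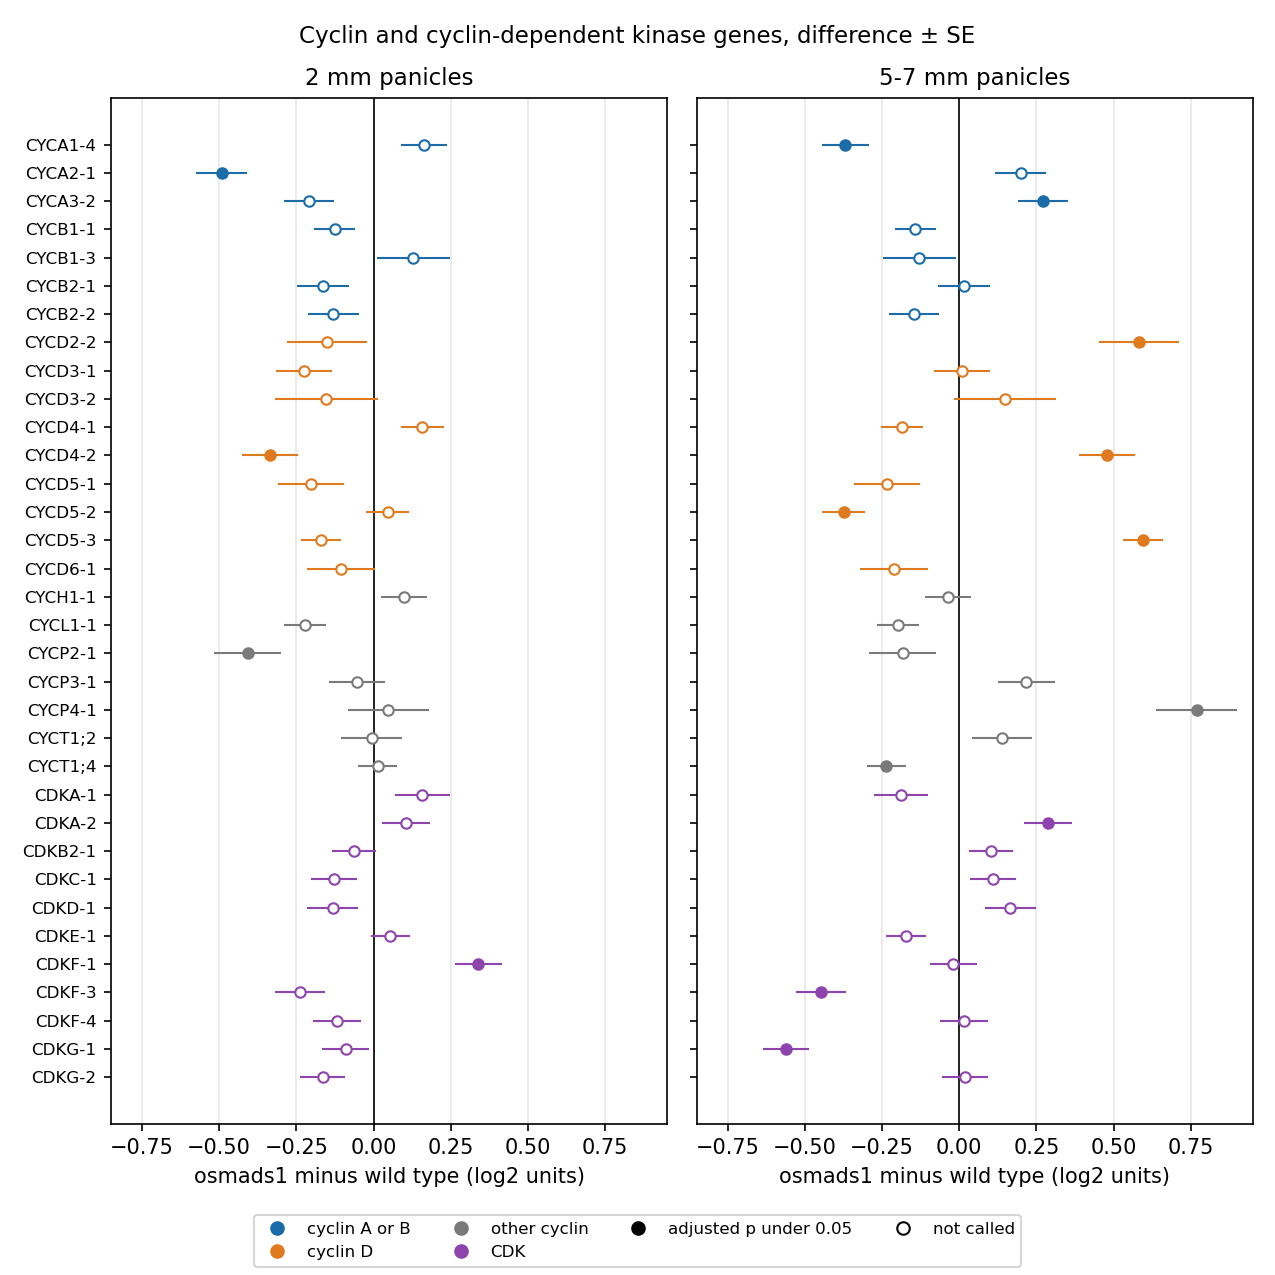
Differences in log2 level, osmads1 minus wild type, for the 34 cyclin and CDK genes in panicles of 2 mm (left) and 5-7 mm (right). Points are fitted differences, bars their standard errors, colours the gene types, and filled points have an adjusted p under 0.05. CYCA2-1 is the lowest at 2 mm (-0.49), and CYCP4-1 is the highest (0.77) and CDKG-1 the lowest (-0.56) at 5-7 mm.

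Among the A- and B-type cyclins, which drive S phase and mitosis, 1 of 7 was called at 2 mm (14.3%) and 2 at 5-7 mm (28.6%), beside 22.3% and 32.7% of all genes called in either direction. CYCA2-1, an A-type cyclin, had log2 levels of 9.01, 8.79 and 8.96 in osmads1 panicles of 2 mm, against 9.39, 9.37 and 9.47 in wild type. All 3 osmads1 arrays lay below the wild-type arrays, and the difference was -0.49 ± 0.083 (SE, adjusted p = 0.00152). At 5-7 mm its levels were 10.23, 10.29 and 10.35 in osmads1 panicles and 10.21, 9.98 and 10.07 in wild type. There the osmads1 arrays lay above the wild-type arrays by 0.20, which did not pass (adjusted p = 0.114).

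The 2 calls in this class at 5-7 mm went in opposite directions. CYCA3-2 had 8.98, 8.91 and 8.99 in osmads1 panicles of 5-7 mm, against 8.61, 8.67 and 8.78 in wild type, a rise of 0.27 ± 0.081 (adjusted p = 0.0291). CYCA1-4 had 8.26, 8.13 and 8.18 in osmads1 panicles, against 8.66, 8.48 and 8.53 in wild type, and fell by 0.37 (SE 0.0756, adjusted p = 0.00325). The arrays of the genotypes did not overlap for either gene. CYCA3-2 no longer passed after omission of osmads1 replicate 1 or 3 or of wild-type replicate 1 or 2 of that length (highest adjusted p = 0.103).

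The 4 B-type cyclins, the partners of CDKs at entry into mitosis, were not called at either length by their brightest probe sets. CYCB1-1 had 10.14, 10.10 and 10.16 in osmads1 panicles of 2 mm and 10.19, 10.28 and 10.30 in wild type (difference -0.13, adjusted p = 0.308). In panicles of 5-7 mm it had 10.81, 10.86 and 10.89 in osmads1 panicles and 10.96, 11.07 and 10.95 in wild type (difference -0.14, adjusted p = 0.165). The osmads1 arrays were below the wild-type arrays at both lengths, by about the same amount. CYCB2-2 showed the same array order, with differences of -0.13 at 2 mm and -0.15 at 5-7 mm (adjusted p = 0.414 and 0.244). Its second probe set, whose name ends in _x_at, the array maker's mark for probes that may also match other transcripts, was called lower at 2 mm, with 7.72, 7.59 and 7.67 in osmads1 panicles, against 7.88, 8.01 and 7.88 in wild type (-0.26 ± 0.074, adjusted p = 0.0358). That call was lost when any of 6 arrays was left out, and the probe set differed by -0.04 at 5-7 mm. CYCB2-1 had 9.52, 9.31 and 9.45 in osmads1 panicles of 2 mm, below the 9.54, 9.61 and 9.62 of wild type, by 0.16 (adjusted p = 0.283), and differed by 0.015 at 5-7 mm with overlapping arrays. CYCB1-3 differed by 0.13 at 2 mm and -0.13 at 5-7 mm, and its arrays overlapped at both lengths.

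The D-type cyclins link growth and hormone signals to the start of the cycle. Of these 9 genes 1 was called at 2 mm (11.1%) and 4 at 5-7 mm (44.4%), beside 22.3% and 32.7% of all genes. CYCD4-2 was called at both, in opposite directions. It had log2 levels of 9.28, 9.03 and 9.14 in osmads1 panicles of 2 mm, against 9.55, 9.50 and 9.40 in wild type, a difference of -0.33 ± 0.091 (adjusted p = 0.0292). At 5-7 mm it had 10.67, 10.74 and 10.71 in osmads1 panicles, against 10.11, 10.40 and 10.18 in wild type, a difference of 0.48 ± 0.091 (adjusted p = 0.00185). The osmads1 arrays were thus all below wild type at 2 mm and all above it at 5-7 mm. At 2 mm it did not pass after omission of osmads1 replicate 2, osmads1 replicate 3, wild-type replicate 1 or wild-type replicate 2 (highest adjusted p = 0.12).

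CYCD5-3 and CYCD2-2 also rose at 5-7 mm. CYCD5-3 had 9.20, 9.23 and 9.18 in osmads1 panicles, against 8.57, 8.70 and 8.56 in wild type, a difference of 0.59 ± 0.065 (1.51-fold, adjusted p = 2.15e-05), with the smallest adjusted p of the set at this length. At 2 mm its osmads1 arrays lay at 8.16, 8.15 and 8.20, below the 8.34, 8.34 and 8.35 of wild type, and that difference of -0.17 did not pass (adjusted p = 0.123). CYCD2-2 had 9.04, 8.97 and 9.13 in osmads1 panicles of 5-7 mm, against 8.51, 8.61 and 8.28 in wild type (0.58 ± 0.13, adjusted p = 0.00576). Its arrays overlapped at 2 mm, where the difference was -0.15 (adjusted p = 0.587).

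CYCD5-2 was the D-type cyclin called lower at 5-7 mm. Its brightest probe set had 8.93, 8.96 and 9.00 in osmads1 panicles, against 9.23, 9.35 and 9.43 in wild type (-0.37 ± 0.069, adjusted p = 0.00156). A second probe set of the gene went the other way, with a difference of 0.40 (adjusted p = 0.0209), and the mean of the 2 probe sets differed by 0.015 (adjusted p = 0.929), so these probe sets gave CYCD5-2 no single direction. The remaining D-type cyclins, CYCD3-1, CYCD3-2, CYCD4-1, CYCD5-1 and CYCD6-1, were not called at either length, with differences from -0.23 to 0.16 at 2 mm and from -0.23 to 0.15 at 5-7 mm.

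The other cyclins changed one at a time. CYCP2-1, a P-type cyclin (a type related to yeast cyclins of phosphate signalling), had 5.38, 5.42 and 5.25 in osmads1 panicles of 2 mm, against 5.62, 5.81 and 5.84 in wild type (-0.41 ± 0.109, adjusted p = 0.027). It did not pass after omission of osmads1 replicate 1, osmads1 replicate 3, wild-type replicate 2 or wild-type replicate 3 (highest adjusted p = 0.114). CYCP4-1, another P-type cyclin, rose most in the set at 5-7 mm: 6.72, 6.60 and 6.85 in osmads1 panicles, against 5.89, 5.80 and 6.18 in wild type (0.77 ± 0.131, adjusted p = 0.000832). At 2 mm it was dim, with overlapping arrays between 4.52 and 4.96, and differed by 0.048.

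The partners of transcriptional and RNA-processing kinases moved little. CYCT1;4 fell at 5-7 mm, with 10.82, 10.93 and 10.88 in osmads1 panicles, against 11.13, 11.06 and 11.15 in wild type (-0.24 ± 0.063, adjusted p = 0.0164), a call lost without osmads1 replicate 1 or wild-type replicate 3. CYCL1-1 had osmads1 arrays below wild type at both lengths, by 0.22 at 2 mm and 0.20 at 5-7 mm, just short of the threshold at each (adjusted p = 0.0553 and 0.057). CYCH1-1 and CYCT1;2 differed by 0.098 and -0.006 at 2 mm and by -0.037 and 0.14 at 5-7 mm, and none of these passed. CYCP3-1, a P-type cyclin and not one of these partners, differed by -0.054 at 2 mm, which did not pass. At 5-7 mm its osmads1 arrays all lay above the wild-type arrays, by 0.22, which did not pass either (adjusted p = 0.117).

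Of the 11 CDK genes 1 was called at 2 mm (9.09%) and 3 at 5-7 mm (27.3%), below the 22.3% and 32.7% of all genes. CDKF-1, whose Arabidopsis relative phosphorylates the CDK-activating kinases, was higher in osmads1 at 2 mm: 8.57, 8.69 and 8.56 in osmads1 panicles, against 8.29, 8.29 and 8.23 in wild type (0.34 ± 0.076, adjusted p = 0.0104). At 5-7 mm its 8.67, 8.57 and 8.83 in osmads1 panicles overlapped the 8.70, 8.72 and 8.71 of wild type. CDKF-1 and the kinesin KIN7J were the 2 genes of the set called higher at 2 mm.

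At 5-7 mm CDKG-1 and CDKF-3 fell. CDKG-1, of a type that acts on RNA splicing in Arabidopsis, had 8.40, 8.44 and 8.41 in osmads1 panicles, against 9.10, 8.94 and 8.90 in wild type (-0.56 ± 0.075, 1.48-fold, adjusted p = 0.00012). At 2 mm its arrays overlapped, at 8.29, 8.46 and 8.31 in osmads1 panicles and 8.46, 8.44 and 8.43 in wild type. CDKF-3 had 8.81, 8.81 and 8.82 in osmads1 panicles of 5-7 mm, against 9.28, 9.14 and 9.37 in wild type (-0.45 ± 0.081, adjusted p = 0.00139). Its osmads1 arrays were also below wild type at 2 mm, at 8.60, 8.77 and 8.79 against 8.88, 8.96 and 9.04, by 0.24 (adjusted p = 0.0838).

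CDKA is the main CDK of the plant cell cycle, and CDKA-2 was called higher at 5-7 mm. It had 8.96, 8.81 and 8.89 in osmads1 panicles, against 8.52, 8.64 and 8.64 in wild type (0.29 ± 0.077, adjusted p = 0.0174), and the call was lost without osmads1 replicate 1 or wild-type replicate 1. This probe set of CDKA-2 is one marked _x_at. Both other probe sets of CDKA-2 were higher too, by 0.44 and 0.41 (adjusted p = 0.00304 and 0.0103). CDKA-1 had 9.54, 9.64 and 9.65 in osmads1 panicles of 2 mm and 9.48, 9.52 and 9.36 in wild type (0.16, adjusted p = 0.339), and differed by -0.19 at 5-7 mm (adjusted p = 0.164). A second, dimmer probe set of CDKA-1 went the other way at 2 mm and was called lower, with 4.78, 5.13 and 4.97 in osmads1 panicles, against 5.36, 5.37 and 5.15 in wild type (-0.33 ± 0.1, adjusted p = 0.0482). At 2 mm the osmads1 arrays thus lay above wild type with one probe set and below it with the other, and the call of the dimmer one was lost when any of 9 arrays was left out. CDKB2-1, a plant-specific kinase of G2 and mitosis, had 10.28, 10.23 and 10.28 in osmads1 panicles of 2 mm and 10.27, 10.33 and 10.38 in wild type. Its values at 5-7 mm were 11.24, 11.17 and 11.31 in osmads1 panicles and 11.15, 11.23 and 11.04 in wild type. Its arrays overlapped at both lengths. The CDK-activating kinase gene CDKD-1 differed by -0.13 at 2 mm and 0.17 at 5-7 mm, and CDKC-1 by -0.13 and 0.11, none past the threshold.

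**Figure D2:**
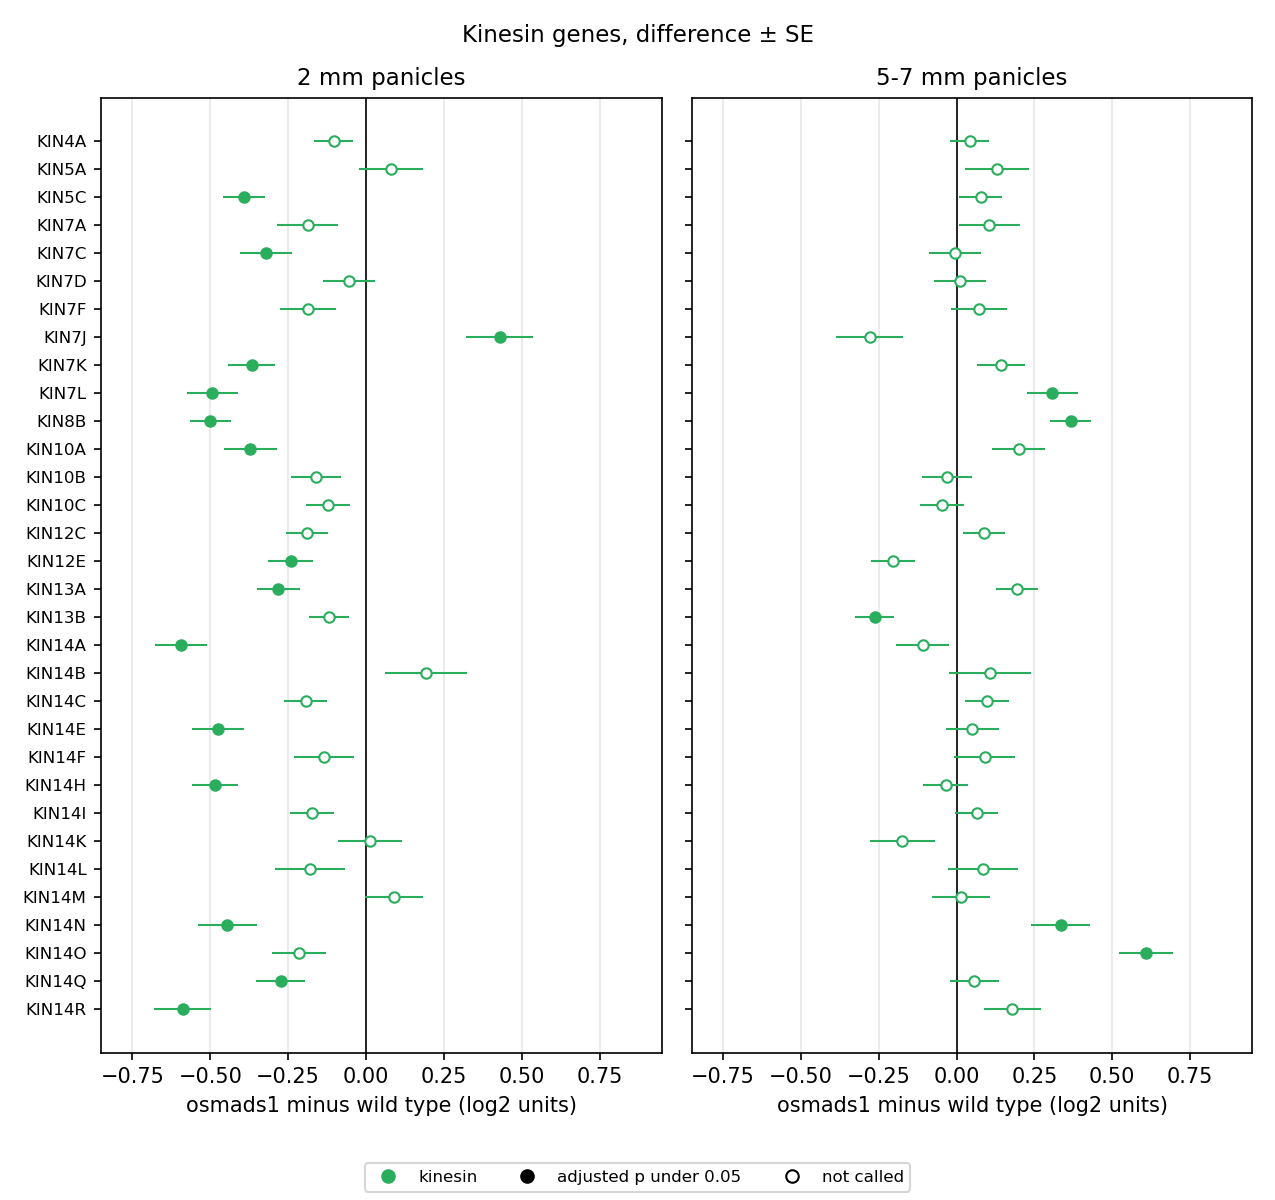
Differences in log2 level, osmads1 minus wild type, for the 32 kinesin genes in panicles of 2 mm (left) and 5-7 mm (right). Points are fitted differences, bars their standard errors, and filled points have an adjusted p under 0.05. At 2 mm 14 filled points lie left of zero (43.8%, beside 12.1% of all genes) and 1 right of it. At 5-7 mm 4 lie right (12.5%, beside 13.3% of all genes) and 1 left (3.12%, beside 19.4%).

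The kinesins held most of the change at 2 mm. Of 32 genes, 14 were lower in osmads1 (43.8%) and 1 higher (3.12%), beside 12.1% and 10.2% of all genes. The median difference was -0.19, and 27 kinesins had a negative difference, beside 53.4% of all genes. At 5-7 mm 4 were higher (12.5%) and 1 lower (3.12%), beside 13.3% and 19.4% of all genes, with a median of 0.074. With single arrays left out, 9 to 14 kinesins were lower at 2 mm (9 without wild-type replicate 3), and 2 to 5 were higher at 5-7 mm (2 without osmads1 replicate 3).

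The kinesins called in opposite directions were KIN8B, KIN7L and KIN14N, all lower in osmads1 at 2 mm and higher at 5-7 mm. KIN8B belongs to the kinesin-8 family, which in yeast and animals regulates microtubule length in the spindle. It had log2 levels of 8.10, 8.01 and 8.04 in osmads1 panicles of 2 mm, against 8.55, 8.56 and 8.54 in wild type (-0.50 ± 0.065, adjusted p = 0.000217). At 5-7 mm it had 9.33, 9.33 and 9.39 in osmads1 panicles, against 8.97, 9.06 and 8.92 in wild type (0.37 ± 0.065, adjusted p = 0.00119). The spread within each group was small beside both differences. The probe set used is one marked _x_at. A second probe set of the gene lay at the level of the reporter probe sets at both lengths. It differed by 0.076 at 2 mm (adjusted p = 0.671) and 0.40 at 5-7 mm (adjusted p = 0.00218). With the mean of the gene's probe sets the call at 2 mm was lost (-0.21, adjusted p = 0.0593).

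KIN7L and KIN14N had the same pattern. KIN7L had 8.16, 7.96 and 8.05 in osmads1 panicles of 2 mm, against 8.43, 8.56 and 8.65 in wild type (-0.49 ± 0.081, adjusted p = 0.00122). Its values at 5-7 mm were 8.67, 8.70 and 8.82 in osmads1 panicles, against 8.39, 8.46 and 8.42 in wild type (0.31 ± 0.081, adjusted p = 0.0152). KIN14N, of the kinesin-14 family whose motors mostly walk to microtubule minus ends, had 9.81, 9.46 and 9.69 in osmads1 panicles of 2 mm, against 9.99, 10.13 and 10.18 in wild type (-0.45 ± 0.094, adjusted p = 0.00706). It had 10.76, 10.88 and 10.93 in osmads1 panicles of 5-7 mm, against 10.58, 10.50 and 10.48 in wild type (0.33 ± 0.094, adjusted p = 0.0222). The genotypes did not overlap for either gene at either length. At 5-7 mm the call of KIN7L was lost without osmads1 replicate 3 or wild-type replicate 1, and that of KIN14N after omission of replicate 2 or 3 of either genotype (highest adjusted p = 0.0698).

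Of the 14 kinesin-14 genes 6 were lower at 2 mm, beside 12.1% of all genes. KIN14A fell most in the set, with 8.65, 8.54 and 8.52 in osmads1 panicles, against 9.18, 9.17 and 9.14 in wild type (-0.59 ± 0.084, adjusted p = 0.00042). KIN14R had 8.31, 7.94 and 8.26 in osmads1 panicles, against 8.80, 8.76 and 8.72 in wild type (-0.59 ± 0.092, adjusted p = 0.000853). KIN14H fell by 0.48 (adjusted p = 0.000666), with 9.32, 9.20 and 9.29 in osmads1 panicles, against 9.68, 9.72 and 9.86 in wild type. In all 3 genes every osmads1 array lay below every wild-type array. KIN14E fell by 0.48 (adjusted p = 0.00223), with 9.21, 8.99 and 9.15 in osmads1 panicles, against 9.59, 9.62 and 9.56 in wild type. KIN14Q, also known as KCH1, a kinesin with a calponin homology domain that binds actin, fell by 0.27 (adjusted p = 0.0376), with 7.78, 7.54 and 7.65 in osmads1 panicles, against 7.93, 7.93 and 7.94 in wild type. The call of KIN14Q was lost when any of 6 arrays was left out.

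Of the kinesin-14 genes lower at 2 mm, only KIN14N was called at 5-7 mm. KIN14E, KIN14H and KIN14Q differed there by 0.05, -0.035 and 0.057, with overlapping arrays. KIN14A had 8.81, 9.09 and 8.98 in osmads1 panicles of 5-7 mm and 8.96, 9.17 and 9.09 in wild type, and the arrays overlapped. KIN14R had 9.53, 9.55 and 9.67 in osmads1 panicles, all above the 9.37, 9.46 and 9.38 of wild type, but the difference of 0.18 did not pass (adjusted p = 0.204). KIN14O rose, with 7.87, 7.75 and 7.91 in osmads1 panicles, against 7.31, 7.16 and 7.25 in wild type (0.61 ± 0.087, 1.52-fold, adjusted p = 0.00021). At 2 mm KIN14O had 6.35, 6.17 and 6.18 in osmads1 panicles and 6.56, 6.31 and 6.47 in wild type, with a difference of -0.21 and overlapping arrays (adjusted p = 0.15).

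Of the 7 kinesins of family 7, 3 were lower and 1 higher at 2 mm, beside 12.1% and 10.2% of all genes. KIN7K had 9.00, 8.84 and 8.98 in osmads1 panicles, against 9.23, 9.37 and 9.32 in wild type (-0.37 ± 0.076, adjusted p = 0.00617). KIN7C fell by 0.32 (adjusted p = 0.0235), a call lost without any of 5 of the 6 arrays of that length. KIN7J went the other way, with 9.67, 9.31 and 9.50 in osmads1 panicles of 2 mm, against 9.07, 8.99 and 9.13 in wild type (0.43 ± 0.108, adjusted p = 0.019), which did not pass after omission of osmads1 replicate 1, osmads1 replicate 3, wild-type replicate 1 or wild-type replicate 2. At 5-7 mm KIN7J had 10.44, 10.11 and 10.37 in osmads1 panicles, all below the 10.48, 10.58 and 10.70 of wild type (-0.28, adjusted p = 0.0878). KIN7A, the rice relative of the tobacco NACK kinesins of cytokinesis, had overlapping arrays at both lengths and differed by -0.19 at 2 mm and 0.10 at 5-7 mm.

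The remaining calls among kinesins concern spindle, phragmoplast and growth genes. KIN5C, of the family of bipolar spindle motors, had 9.16, 9.01 and 9.18 in osmads1 panicles of 2 mm, against 9.48, 9.51 and 9.55 in wild type (-0.39 ± 0.068, adjusted p = 0.00178), and differed by 0.077 at 5-7 mm (adjusted p = 0.484). KIN10A, also known as STD1, a gene of cell division whose rice mutant is a stemless dwarf, had 9.69, 9.54 and 9.59 in osmads1 panicles of 2 mm, against 9.88, 9.98 and 10.06 in wild type (-0.37 ± 0.085, adjusted p = 0.0115), a call lost without wild-type replicate 3. KIN12E, of a family of phragmoplast kinesins, fell by 0.24 at 2 mm (adjusted p = 0.0435), lost when any of 9 arrays was left out, and differed by -0.21 at 5-7 mm (adjusted p = 0.0578).

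The 2 kinesin-13 genes differed from each other. KIN13A, also known as SRS3, whose rice mutant has small round seeds, had 9.15, 9.13 and 9.10 in osmads1 panicles of 2 mm, against 9.40, 9.35 and 9.47 in wild type (-0.28 ± 0.068, adjusted p = 0.0155). This call was lost without osmads1 replicate 3 or wild-type replicate 3, and a second probe set differed by -0.13 (adjusted p = 0.67). At 5-7 mm KIN13A had 10.11, 10.27 and 10.22 in osmads1 panicles, above the 10.00, 10.01 and 10.00 of wild type, by 0.20 (adjusted p = 0.0589). KIN13B was the 1 kinesin called lower at 5-7 mm, with 10.78, 10.84 and 10.77 in osmads1 panicles, against 11.05, 11.03 and 11.09 in wild type (-0.26 ± 0.063, adjusted p = 0.0088). Its difference at 2 mm was -0.12 (adjusted p = 0.306), and its probe set is one marked _x_at.

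Several bright kinesins were not called at either length. KIN10C had 9.97, 9.84 and 9.90 in osmads1 panicles of 2 mm and 9.97, 10.05 and 10.05 in wild type, and differed by -0.047 at 5-7 mm. KIN12C had osmads1 arrays below wild type at 2 mm by 0.19 (adjusted p = 0.0977) and differed by 0.087 at 5-7 mm. KIN4A, also known as GDD1, which acts on cellulose orientation and gibberellin synthesis in rice, differed by -0.10 at 2 mm and 0.042 at 5-7 mm. KIN14I, the calmodulin-binding kinesin KCBP, differed by -0.17 at 2 mm (adjusted p = 0.151) and 0.065 at 5-7 mm. KIN14C had 10.09, 10.01 and 10.03 in osmads1 panicles of 2 mm, all below the 10.25, 10.27 and 10.20 of wild type, but the difference of -0.19 did not pass (adjusted p = 0.1), and at 5-7 mm it differed by 0.098. Over the whole set 35 of the 66 genes (53.0%) were called at neither length, beside 55.8% of all genes.

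**Figure D3:**
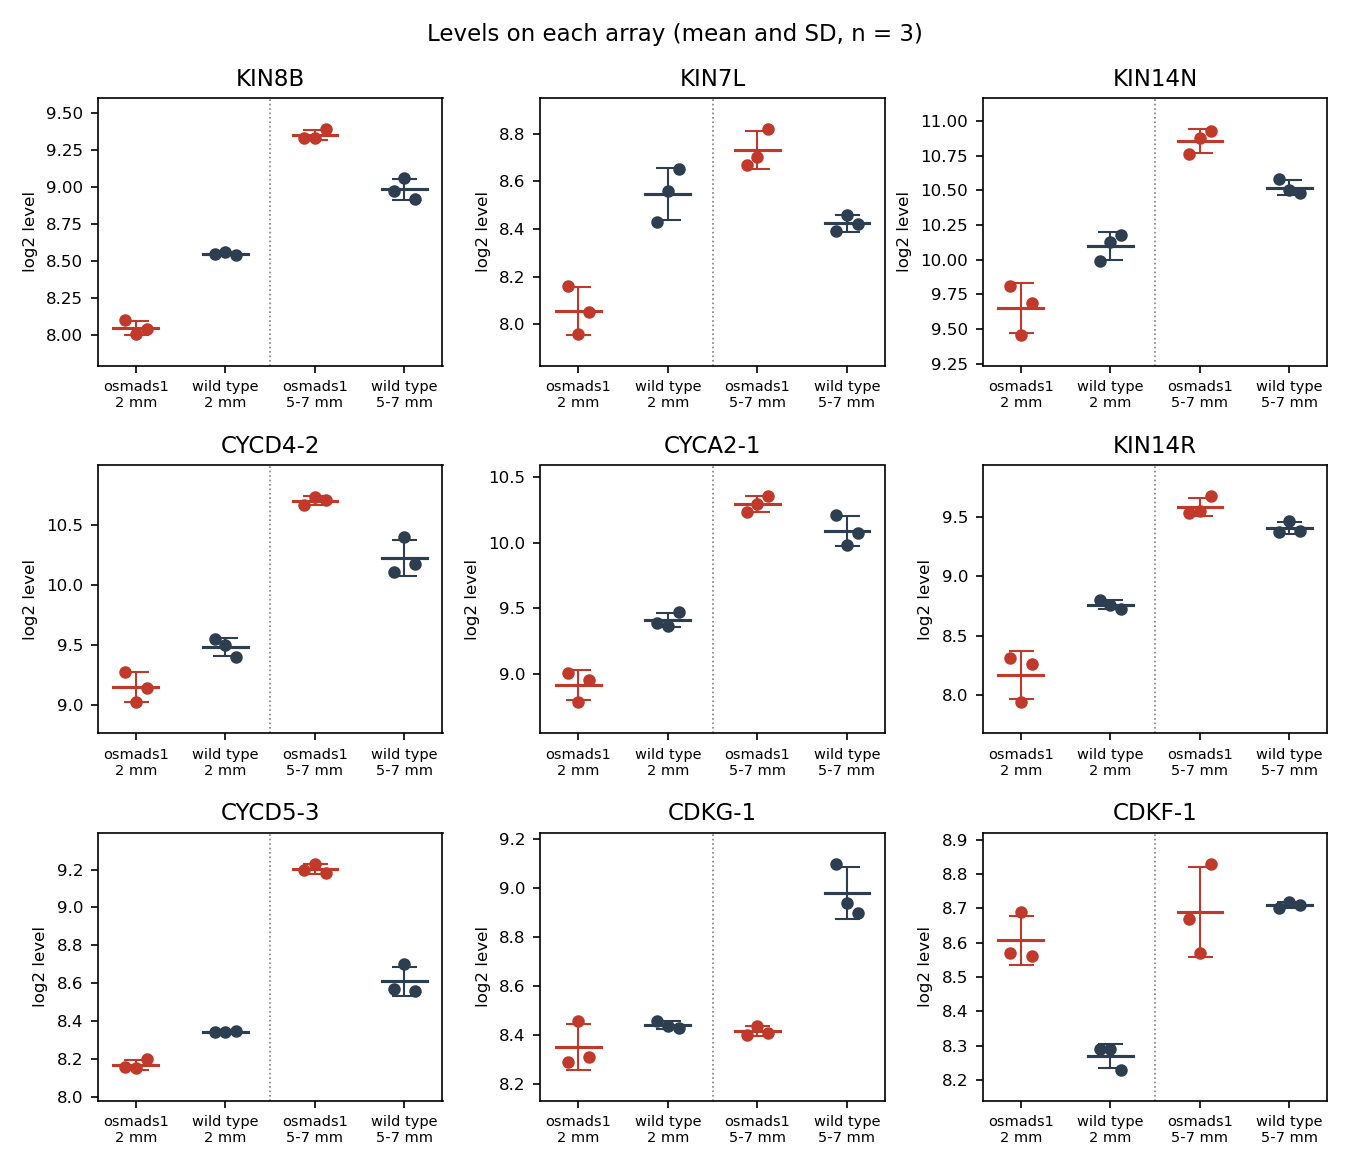
Log2 levels of 9 members on each of the 12 arrays, with osmads1 in red and wild type in dark blue. Points are arrays, horizontal lines the means of 3 arrays and bars the SD, and a dotted line parts the 2 lengths, whose levels are not compared. KIN8B, KIN7L, KIN14N and CYCD4-2 lie below wild type at 2 mm and above it at 5-7 mm, CYCD5-3 and CDKG-1 part most at 5-7 mm, and CDKF-1 parts at 2 mm.

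Whether a gene's difference between genotypes differed between the lengths was tested by an interaction, the difference at 5-7 mm minus that at 2 mm. The lengths may have been normalized apart, and some RNA quality controls parted the genotypes at 2 mm only. The part of either in the interactions was not tested. The interaction was positive and called for 20 of the 66 genes (30.3%) and negative and called for 6 (9.09%), against 17.2% and 19.2% of all genes. The median interaction was 0.20, against 0.001 over all genes. Among members brighter than the median gene, 18 of 57 were positive (31.6%), against 20.5% of all such genes. Kinesins made up 14 of the 20 positive calls, and 8 of those were kinesin-14 genes. The interaction was 0.87 ± 0.092 for KIN8B (adjusted p = 1.7e-05), with the smallest adjusted p of the set, and 0.82 ± 0.122 for KIN14O (adjusted p = 0.000275).

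The D-type cyclins stood on both sides. CYCD4-2, CYCD5-3 and CYCD2-2 had interactions of 0.81, 0.77 and 0.73 (adjusted p = 0.000437, 4.51e-05 and 0.011). CYCD5-2 had -0.42 with the probe set used (adjusted p = 0.007), and CYCD4-1 had -0.34 (adjusted p = 0.0226), a call lost without osmads1 replicate 1 or 3 of 2 mm or osmads1 replicate 2 of 5-7 mm. CYCD4-1 was called at neither length: it had 9.55, 9.40 and 9.49 in osmads1 panicles of 2 mm, above the 9.34, 9.33 and 9.29 of wild type, and 10.22, 10.09 and 10.24 in osmads1 panicles of 5-7 mm, below the 10.35, 10.37 and 10.38 of wild type. KIN7J (-0.71), CYCA1-4 (-0.53), CDKG-1 (-0.47) and CDKF-1 (-0.36) were the other negative calls. The interaction call of CDKF-1 was lost when any of 8 arrays was left out, that of KIN14Q with any of 10, and that of KIN14C with any of 11.

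Of the 17 genes lower at 2 mm, 4 were higher at 5-7 mm (23.5%), and these 4 were 40.0% of the 10 genes higher at 5-7 mm: CYCD4-2, KIN7L, KIN8B and KIN14N. Over all genes 29.4% of those lower at 2 mm were higher at 5-7 mm, a share close to that of the set. By sign alone, 35 of the 66 genes (53.0%) were below wild type at 2 mm and above it at 5-7 mm, beside 30.6% of all genes.

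**Figure D4:**
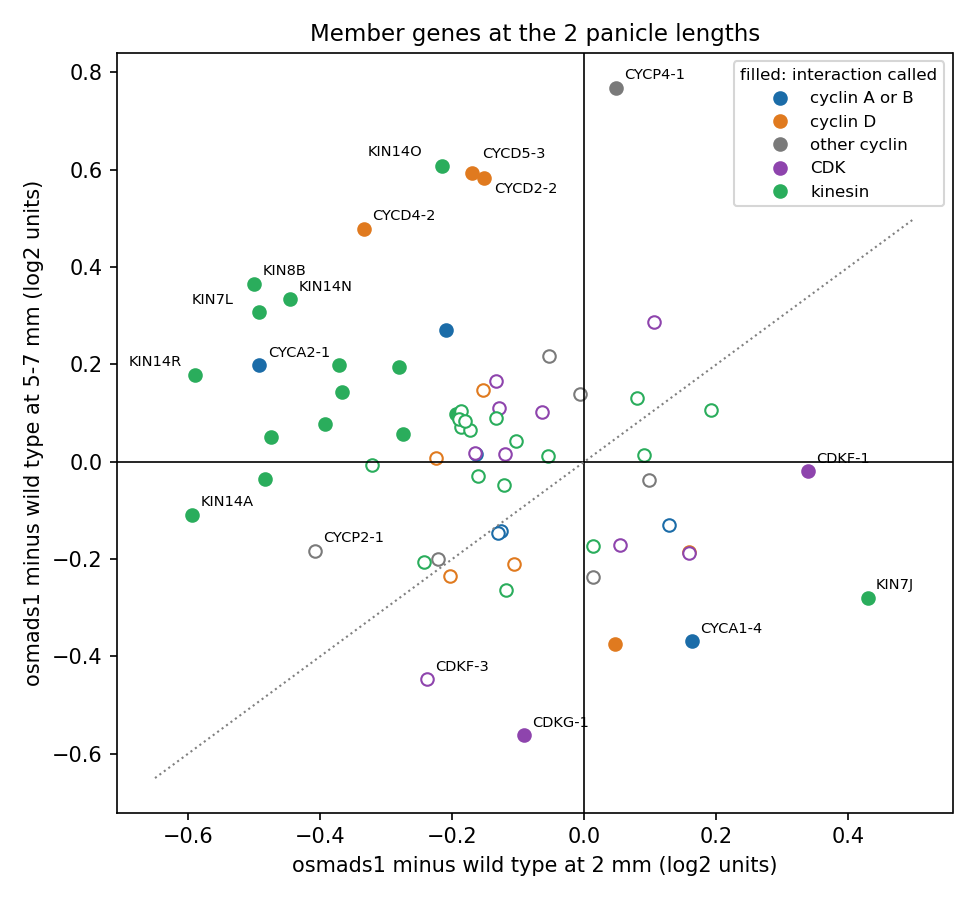
Difference in log2 level, osmads1 minus wild type, at 2 mm (x axis) and at 5-7 mm (y axis) for the 66 genes, coloured by type. Filled points have a called interaction, and the dotted line marks equal differences. Of the points 35 (53.0%, beside 30.6% of all genes) lie at the upper left, below wild type at 2 mm and above it at 5-7 mm, and KIN8B, KIN7L, KIN14N and CYCD4-2 are called at both lengths.

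Of the 66 genes 11 had more than 1 probe set, and for some of them, CYCD5-2, CDKA-1 and KIN8B above among them, the probe sets disagreed. The brightest probe set of CDKE-1, the Mediator kinase, differed by 0.054 at 2 mm and -0.17 at 5-7 mm, neither called. Its second, dimmer probe set averaged 5.83 in osmads1 panicles and 5.106 in wild type at 2 mm (0.72, adjusted p = 0.0104), and 3.751 in osmads1 panicles and 4.678 in wild type at 5-7 mm (-0.93, adjusted p = 0.00108). Its call at 2 mm was lost without osmads1 replicate 2. At 5-7 mm its osmads1 mean lay below the upper quartile of the reporter probe sets (3.885). CDKF-4 had a second probe set higher by 0.41 at 2 mm (adjusted p = 0.0335) and lower by 0.47 at 5-7 mm (adjusted p = 0.00871), beside -0.12 and 0.015 with its brightest one, and its call at 2 mm was lost without any 1 of the 6 arrays of that length. One of the other probe sets of CDKG-2, marked _x_at, was higher by 0.37 at 2 mm (adjusted p = 0.00923), where the brightest differed by -0.16. One of the other probe sets of KIN14K, at the level of the reporter probe sets, was higher by 0.41 at 5-7 mm (adjusted p = 0.00116). The brightest probe set of KIN14K, marked _x_at, differed there by -0.17. The second probe set of CDKG-1 also lay at reporter level and differed by -0.20 at 5-7 mm (adjusted p = 0.17).

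Genes of DNA replication had larger median differences than the cyclins, CDKs and kinesins. The list held 21 named genes of replication licensing and the replication fork (MCM, ORC, PCNA and RPA genes). At 2 mm 17 were lower in osmads1 (81.0%), beside 12.1% of all genes, with a median difference of -0.49. At 5-7 mm 16 were higher and 1 lower (76.2% and 4.76%), beside 13.3% and 19.4% of all genes, with a median of 0.96. RPA2A, a subunit of the single-strand binding protein of the fork, had 8.36, 7.96 and 8.23 in osmads1 panicles of 2 mm, against 8.67, 8.79 and 8.75 in wild type. At 5-7 mm it had 10.85, 10.75 and 10.85 in osmads1 panicles, against 9.34, 9.63 and 9.48 in wild type (1.34, adjusted p = 1.12e-06). The osmads1 arrays were again below wild type at 2 mm and above it at 5-7 mm. Of the 5 measured H2B histone genes 3 were lower at 2 mm (60.0%) and 2 higher at 5-7 mm (40.0%), beside 12.1% and 13.3% of all genes. All 5 had a positive called interaction, between 0.37 and 0.57, beside 17.2% of all genes. The probe set of H2B.7 is marked _x_at, and whether these probe sets read each other's transcripts was not tested. Other histone types that were planned are not given here.

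The 9 measured regulators of CDK activity were the inhibitors KRP1, KRP4, KRP5, KRP6, EL2 and SMR1, the CDK subunit CKS1, and RBR1 and RBR2, the retinoblastoma-related targets of D-type cyclin complexes. At 2 mm 3 were higher in osmads1 (33.3%, beside 10.2% of all genes), and these were inhibitors: SMR1, EL2 and KRP5. At 5-7 mm 2 were higher (KRP5 and RBR1) and 4 lower (EL2, SMR1, KRP4 and KRP6). These are 22.2% and 44.4% of this short list, beside 13.3% and 19.4% of all genes. KRP4 and KRP6 are named because the count is small, after their values were seen.

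EL2, an inhibitor of the SIAMESE type in rice, had log2 levels of 9.69, 10.11 and 9.90 in osmads1 panicles of 2 mm, against 9.38, 9.52 and 9.23 in wild type (0.52, adjusted p = 0.0173). Its values at 5-7 mm were 7.74, 7.31 and 7.60 in osmads1 panicles, against 10.72, 10.50 and 10.56 in wild type. That is a difference of -3.04, or 8.24-fold lower in osmads1 (adjusted p = 3.83e-09), far outside the spread of either group. At 2 mm EL2 did not pass after omission of osmads1 replicate 2, osmads1 replicate 3, wild-type replicate 1 or wild-type replicate 3 (highest adjusted p = 0.0833).

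SMR1, another inhibitor of the SIAMESE type, also changed in opposite directions. It had 9.24, 9.25 and 9.25 in osmads1 panicles of 2 mm, against 8.47, 8.22 and 8.34 in wild type (0.90, adjusted p = 4.87e-05). At 5-7 mm it had 8.62, 8.42 and 8.71 in osmads1 panicles, against 9.61, 9.39 and 9.68 in wild type (-0.97, adjusted p = 1.11e-05). For both genes the order of the genotypes at each length is the reverse of that of KIN8B, KIN7L, KIN14N and CYCD4-2.

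KRP5 rose at both lengths. It had 10.29, 10.38 and 10.39 in osmads1 panicles of 2 mm, against 10.00, 10.01 and 10.03 in wild type (0.34, adjusted p = 0.00631). Its values at 5-7 mm were 11.12, 11.15 and 11.15 in osmads1 panicles, against 10.45, 10.60 and 10.38 in wild type (0.66, adjusted p = 1.98e-05). RBR1 had 9.98, 10.08 and 10.05 in osmads1 panicles of 5-7 mm, against 9.30, 9.56 and 9.30 in wild type (0.65, adjusted p = 0.000994), and at 2 mm differed by -0.32 (adjusted p = 0.0918). Its interaction was 0.98 (adjusted p = 0.0006). KRP4 and KRP6 fell by 0.29 and 0.37 at 5-7 mm (adjusted p = 0.0167 and 0.0265), and each call was lost when any of 3 arrays was left out.

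**Figure D5:**
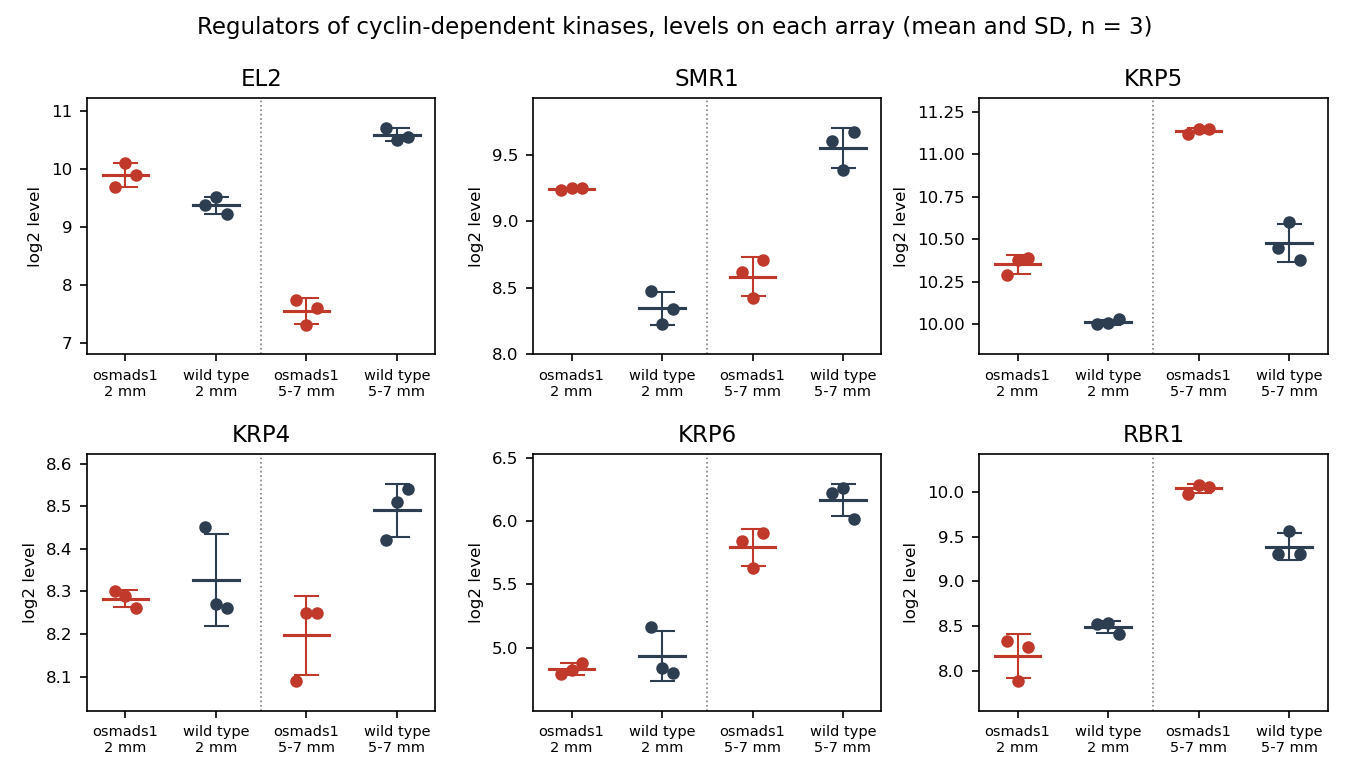
Log2 levels of 6 regulators of CDKs on each of the 12 arrays, with osmads1 in red and wild type in dark blue. Points are arrays, horizontal lines the means of 3 arrays and bars the SD. EL2 and SMR1 lie above wild type at 2 mm and below it at 5-7 mm, and KRP5 lies above it at both lengths.

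Markers of other cells in the panicle moved as well, in short lists. Among all genes 10.2% were higher and 12.1% lower at 2 mm, and 13.3% higher and 19.4% lower at 5-7 mm. Of 7 tapetum and anther markers, 4 were higher and 1 lower in osmads1 at 2 mm, with a summed log2 level of 10.13 to 10.22 on osmads1 arrays and 10.49 to 10.65 on wild-type arrays, and 1 was higher at 5-7 mm. The sum was carried by MSP1, a receptor kinase gene of the early anther, which fell by 0.60 at 2 mm and was the 1 higher at 5-7 mm. The 4 markers higher at 2 mm rose against this sum: OsC6 by 2.73, RAFTIN1 by 1.67, CYP703A3 by 1.66 and EAT1, at reporter level, by 0.49. Of the 7 markers 2 lay at the level of the reporter probe sets at 2 mm and 4 at 5-7 mm. Of 5 meiosis markers 1 was higher and 3 lower at 2 mm (summed level 9.28 to 9.56 on osmads1 arrays and 9.71 to 9.78 on wild-type arrays), and 1 was higher and 2 lower at 5-7 mm (11.42 to 11.57 and 11.94 to 12.03). Of 9 photosynthesis markers 4 were higher at 2 mm (10.09 to 10.35 on osmads1 arrays and 9.28 to 9.55 on wild-type arrays), and 4 were higher and 1 lower at 5-7 mm (10.08 to 10.77 and 9.67 to 9.87). Their part in the results on cyclins, CDKs and kinesins was not tested. The summed level of the 66 genes themselves was 14.9 to 15.03 on osmads1 arrays of 2 mm, below the 15.12 to 15.15 of wild type, and 15.82 to 15.88 on osmads1 arrays of 5-7 mm, overlapping the 15.82 to 15.86 of wild type.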

How the data were processed

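Biotin-labelled cRNA from 12 panicle samples was hybridised to Affymetrix rice arrays, per the labels. Values are used as deposited by the authors, as log2 levels of probe sets, and the submitters' processing notes name Partek and RMA, for which the sources used here give neither versions nor settings. With RMA there is no detection call, and it shrinks the differences of dim probe sets. The number of arrays limits the precision.

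After 187 control probe sets were left out, 57194 probe sets were fitted with limma 3.58.1 in R 4.3.3 (1 mean per group, all 12 arrays, eBayes, residual degrees of freedom 8, prior 4.74), with two-sided tests. A call is an adjusted p under 0.05 (Benjamini-Hochberg, over all 57194). The script was tested on simulated data. Probe sets with 1 gene (22436, for 17905 genes) were named through the platform annotation and the reference gene table (assembly ASM3414082v1). Background shares use 1 probe set per gene, the brightest. A summed level is the log2 of the sum of linear levels. A gene lay at reporter level when both genotype means were below the upper quartile of 64 reporter probe sets (3.302 at 2 mm, 3.885 at 5-7 mm). Figures were drawn with Python 3.11.15 and matplotlib 3.10.9.

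The members, related lists, markers and named genes were chosen with earlier results of these data known. Array values, at 1 length or both, are given for at most 4 called members of a type and comparison, at most 4 bright uncalled members of a type, genes with a called interaction, and at most 3 genes of a related list by smallest adjusted p. WEE1, KRP2, KRP3 and ORC6 had no probe set, and E2F, DP, CDC6, CDT1 and the spindle checkpoint and mitotic exit genes were not matched to 1 gene by name. A planned search for motifs was not run, since no promoter or protein sequences were used here. The titles do not say whether replicate numbers mark a shared field plot or day. Same-numbered deviations from the group means, over all probe sets, correlated at 0.014 to 0.084 at 2 mm and -0.068 to 0.074 at 5-7 mm. Such correlations cannot exclude a shared plot or day. Alternatives were quantile normalization of all arrays, a filter on dim probe sets, the arrays of 1 length alone, another variance prior, a replicate block, the mean of a gene's probe sets, and each array left out.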

Additional observations from a re-analysis of the deposited data

Results flagged for a closer look

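The difference between osmads1 and wild type differed between panicles of 5-7 mm and of 2 mm, by the interaction test (adjusted p under 0.05 over all probe sets), for 26 of the 66 genes (39.4%), beside 36.3% of all genes, and for 12 other probe sets and regulators. The share of members called in either direction is thus near that of all genes. Values are the log2 difference at 5-7 mm minus that at 2 mm. Among the cyclins it was 0.692 for CYCA2-1, 0.48 for CYCA3-2, -0.532 for CYCA1-4, 0.735 for CYCD2-2, 0.813 for CYCD4-2, 0.765 for CYCD5-3, -0.342 for CYCD4-1, -0.42 for CYCD5-2 and 0.721 for CYCP4-1. Among the CDKs it was -0.358 for CDKF-1 and -0.471 for CDKG-1.

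Among the kinesins it was positive for 14 genes, namely 0.866 for KIN8B, 0.823 for KIN14O, 0.801 for KIN7L, 0.78 for KIN14N, 0.768 for KIN14R, 0.57 for KIN10A, 0.526 for KIN14E, 0.511 for KIN7K, 0.485 for KIN14A, 0.476 for KIN13A, 0.469 for KIN5C, 0.449 for KIN14H, 0.332 for KIN14Q and 0.292 for KIN14C. It was -0.708 for KIN7J.

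Of the dimmer probe sets of member genes, those of CDKA-2 had 0.666 and 0.473, that of CYCD5-2 had 0.578, that of KIN8B had 0.328 and 1 of KIN14K had 0.357. Negative values were -1.651 for CDKE-1, -0.88 for CDKF-4 and -0.582 for CDKG-2. The call of this KIN8B probe set was lost when any of 10 arrays was left out. That of the CDKA-2 probe set with 0.473 was lost with any of 7, and that of KIN14K with any of 5. These KIN8B and KIN14K probe sets lay at reporter level at both lengths. The osmads1 mean of the CDKE-1 probe set at 5-7 mm was below the upper quartile of the reporter probe sets. Among the CDK regulators the interaction was -3.567 for EL2, -1.874 for SMR1, 0.976 for RBR1 and 0.318 for KRP5, the last of which was lost when any of 11 arrays was left out.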

How the results depend on the processing

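With single arrays left out, the members higher at 2 mm numbered 1 to 2 and those lower 11 to 17, those higher at 5-7 mm 7 to 10 and those lower 5 to 7, and the interactions called positive 18 to 22 and negative 4 to 6. Members lower at 5-7 mm numbered 10 when probe sets below the median level were left out, and 12 with a trended, robust variance prior, against the 6 reported, which both counts include. The counts of members at 2 mm, those higher at 5-7 mm and those of the interaction stayed within 1.5 times in the alternatives that kept all arrays. The replicate block gave 2 higher and 13 lower at 2 mm, 7 and 5 at 5-7 mm, and 18 and 4 for the interaction. Whether the replicate numbers mark shared plots or days is not known. With the mean of a gene's probe sets, CYCD5-2 turned to 0.015 at 5-7 mm and 0.079 for the interaction (adjusted p = 0.929 and 0.704), since its probe sets go opposite ways. Over 94 named results and 18 settings, 1428 of 1617 alternatives kept direction and call, 187 lost the call and 2 turned direction.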
